A study of Homo sapiens with 3 samples.

Results

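The respiratory chain of mitochondria is built from proteins of 2 genomes, and the transcripts of both were followed in single cells of a Caco-2 and HT29 co-culture. A total of 105 of the 33538 genes in the count tables were taken by symbol: the subunits of NADH dehydrogenase (complex I), succinate dehydrogenase (complex II), the cytochrome bc1 complex (complex III), cytochrome c oxidase (complex IV) and ATP synthase (complex V). Of these, 13 genes are encoded by the mitochondrial genome and 83 by nuclear chromosomes. The other 9 are not subunits in the strict sense, or share sequence with one: the ATP synthase inhibitor ATP5IF1, ATP5S, COX7A2L, UQCRHL, ATP5MGL, the antisense transcripts NDUFB2-AS1 and NDUFV2-AS1, and the readthrough transcripts ATP5MF-PTCD1 and NDUFC2-KCTD14. Assembly factors, NDUFA4L2 and pseudogenes were left out, and CYC1 does not fall under the symbols.

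In the chain, complexes I and II take electrons from NADH and succinate, complex III passes them to cytochrome c, and complex IV hands them to oxygen. Complexes I, III and IV pump protons across the inner membrane, and complex V makes ATP from their return flow. The mitochondrial genome carries only core membrane subunits, transcribed as long precursors from both strands and cut into messengers, most of them for 1 protein, although MT-ATP8 stays joined to MT-ATP6 and MT-ND4L to MT-ND4, while each nuclear subunit has a promoter of its own. Complex II is wholly nuclear-encoded. Differentiated absorptive cells of the intestine have a high energy demand for transport.

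Both cell lines come from human colon carcinomas and were seeded together on Transwell inserts at 9 parts Caco-2 to 1 part HT29. Control 1 and control 2 were untreated, and the third library was given 1 ng/ml LPS of Escherichia coli O111:B4 in the apical chamber from day 22 for 24 h. All 3 were harvested by trypsin on day 23, were thawed from a frozen state, and passed a removal of dead cells where viability was low. Polyadenylated RNA was counted at the 3′ end as unique molecular identifiers (UMIs). The study's methods mention several Transwells but neither they nor the labels say which insert gave which library. All were seeded from 1 passage of each line, so the spread between these libraries may be technical. For LPS, p-values measure that spread, and with 1 LPS library the treatment has no replicate. For comparisons of cells within libraries, p-values measure how far the difference varied over the 3 libraries, which may be technical too.

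The tables hold 5811 barcodes and 33893707 UMIs in control 1, 6495 and 27934953 in control 2, and 6838 and 24185467 in the LPS library. After the cell filters 4634, 4989 and 4851 cells remained, with median depths of 5454, 4105 and 3575 UMIs. Only 7, 4 and 5 kept barcodes were shared between pairs of libraries. Cells were divided by the summed UMIs of 20 HT29 and 18 Caco-2 marker genes, none of them a respiratory chain gene, which gave 619, 929 and 774 HT29-line cells and 3939, 3923 and 3951 Caco-2-line cells in control 1, control 2 and the LPS library. A further 339 cells near the dividing value were assigned to no line. Caco-2 markers summed to 15775 to 18732 counts scaled to a common library total (CPM) in Caco-2-line cells and 719 to 800.3 in HT29-line cells, where free RNA and true expression could not be separated. Of the 18 Caco-2 markers, IGF2 had no UMI in kept cells. Epithelial markers were present in both lines, endothelial markers stayed at or below 3.77 CPM in sum, and the endothelial marker KDR was at 0 in every library. Fibroblast markers reached 33.3 CPM and leukocyte markers 44.7 CPM in sum, each in the cell group and library with the most.

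All 105 genes were placed on GRCh38 by Ensembl identifier. The mitochondrial genes run from MT-ND1 (chrM:3307-4262) to MT-CYB (chrM:14747-15887), all on the forward strand but MT-ND6 (chrM:14149-14673). They are packed so closely that neighbours share coding bases. The stretches below are shown because the genes of each pair share these bases and stay joined in 1 messenger. With counting at the 3′ end, this makes the split between MT-ATP8 and MT-ATP6, and between MT-ND4L and MT-ND4, uncertain. The capitals mark the start codon of the downstream gene and the stop codon of the upstream gene, in the GRCh38 sequence at chrM:8527-8572 and chrM:10760-10766.
MT-ATP8/MT-ATP6: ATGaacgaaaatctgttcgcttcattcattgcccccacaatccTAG
MT-ND4L/MT-ND4: ATGcTAA

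The members sit on 23 chromosomes, the mitochondrial one included, and 68 nuclear members had a RefSeq promoter entry (GRCh38.p14, 250 bases before to 50 after the gene start; 80 entries). A 10-base palindrome known as an NRF1 binding motif, shown in capitals in the sequences that follow, was found with any base in place of one of its middle letters, on either strand, in 21.2% of these promoters and in 5.78% of all 35116 promoters of the same length. CCGGAAGT on either strand, the core bound by ETS factors such as GABP, was in 15% against 4.14%. The exact palindrome was present in 5.0% of the members' promoters against 1.24% of all, in 4 genes, ATP5F1C, NDUFA8, NDUFB4 and SDHD. A pair of these promoters is printed because the genes they belong to differed between the cell lines in opposite directions, as described further on. Capitals mark the palindrome, which starts 22 bases before the start of ATP5F1C (chr10:7787927-7788226, forward strand) and 159 bases before that of NDUFB4 (chr3:120596086-120596385, forward strand). Only the exact palindrome is marked. The NDUFB4 stretch also holds matches to the looser form, nearer the gene start, which are left in lower case.
ATP5F1C: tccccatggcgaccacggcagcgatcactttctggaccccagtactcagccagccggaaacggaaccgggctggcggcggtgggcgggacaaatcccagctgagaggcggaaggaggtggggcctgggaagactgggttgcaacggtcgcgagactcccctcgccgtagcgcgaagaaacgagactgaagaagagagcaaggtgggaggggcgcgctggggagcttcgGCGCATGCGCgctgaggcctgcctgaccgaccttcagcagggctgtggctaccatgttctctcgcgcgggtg
NDUFB4: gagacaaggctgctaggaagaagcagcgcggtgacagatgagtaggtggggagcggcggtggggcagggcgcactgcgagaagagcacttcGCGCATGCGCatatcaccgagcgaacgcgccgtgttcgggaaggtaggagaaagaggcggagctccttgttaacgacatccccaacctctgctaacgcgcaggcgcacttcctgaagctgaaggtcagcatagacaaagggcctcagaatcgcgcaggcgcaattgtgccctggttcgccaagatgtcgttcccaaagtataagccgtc

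In kept cells, 101 of the 105 genes had at least 1 UMI. The 4 without any were COX6A2 and COX7A1, the heart and skeletal muscle isoforms of complex IV subunits, COX7B2, a testis isoform, and the readthrough NDUFC2-KCTD14. A count of 0 over 14474 cells allows a share of up to 0.0207% of cells with a UMI, for counting error only. COX4I2, the lung isoform, had 2 UMIs in all and COX8C, a testis isoform, had 1. The isoforms found in most tissues carried the signal instead, with COX4I1 at 971, 855 and 821 CPM and COX6A1 at 675, 607 and 547 CPM in control 1, control 2 and the LPS library. The 3 genes for the c ring of ATP synthase, which encode the same mature protein, were all expressed: ATP5MC1 at 164, 165 and 145 CPM, ATP5MC2 at 595, 593 and 563 CPM and ATP5MC3 at 596, 499 and 442 CPM. CPM values are not per length, so each level is given for its own gene and no order of levels between genes is drawn.

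Up to 5 nuclear subunits of each complex, those with the most UMIs, were named to describe its levels, without comparing the genes with each other. In complex I they were NDUFC2, NDUFB9, NDUFA1, NDUFA3 and NDUFS8, small accessory subunits apart from NDUFS8, which holds iron-sulfur clusters, with mean levels of 503 ± 70, 378 ± 19.2, 318 ± 14.4, 312 ± 34 and 304 ± 28.6 CPM (SD, n = 3 libraries). In complex II, with 4 subunits, the mean level was 55.2 ± 0.381 CPM for SDHA, which oxidises succinate, and 73.9 ± 3.47 CPM for the membrane anchor SDHD. In complex III they were UQCRH, UQCR10, UQCRB, UQCR11 and UQCRQ, and UQCRH, which helps bind cytochrome c, stood at 639 ± 23.3 CPM. In complex IV they were COX7C, COX4I1, COX6B1, COX5B and COX7A2, with COX7C at 1158 ± 34.2 CPM. In complex V they were ATP5F1E, the epsilon subunit of the rotor, at 3266 ± 439 CPM, together with ATP5MG, ATP5ME, ATP5MC2 and ATP5MC3.

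The mitochondrial genes supplied 3.98%, 4.59% and 5.0% of all UMIs of kept cells in control 1, control 2 and the LPS library. The 83 nuclear subunit genes supplied 2.98%, 2.69% and 2.61% of the UMIs outside the mitochondrial genome. Unless stated otherwise, the mitochondrial and nuclear shares below keep these denominators, so they are not parts of 1 total. The 2 parts therefore ran in opposite orders over the libraries, the mitochondrial one lowest and the nuclear one highest in control 1. These 13 genes are all the mitochondrial features of the tables, so the limit of 20% mitochondrial UMIs per cell acts directly on them and removed 18, 54 and 86 cells.

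The question then was whether the 2 cell lines, which share the inserts, differ in this set of genes. HT29-line cells had a lower mitochondrial share than Caco-2-line cells in each library, while the ratio of the nuclear share lay near 1. The mitochondrial share was 3.38%, 3.38% and 4.09% in HT29-line cells and 4.08%, 4.85% and 5.21% in Caco-2-line cells of control 1, control 2 and the LPS library. The values are lower in HT29-line cells within every library, although the LPS value of HT29-line cells overlaps with the Caco-2-line value of control 1. The ratio of HT29-line to Caco-2-line was 0.77 ± 0.07 for the mitochondrial share and 1.01 ± 0.06 for the nuclear share (mean ± SD, n = 3 libraries). By complex, the mitochondrial ratio was 0.69 ± 0.06 for complex I, 0.80 ± 0.07 for complex IV and 0.80 ± 0.09 for complex V, but 1.20 ± 0.08 for complex III, whose single mitochondrial gene is MT-CYB. The nuclear ratio stayed between 0.94 ± 0.07 in complex V and 1.09 ± 0.08 in complex I.

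**Figure D1:**
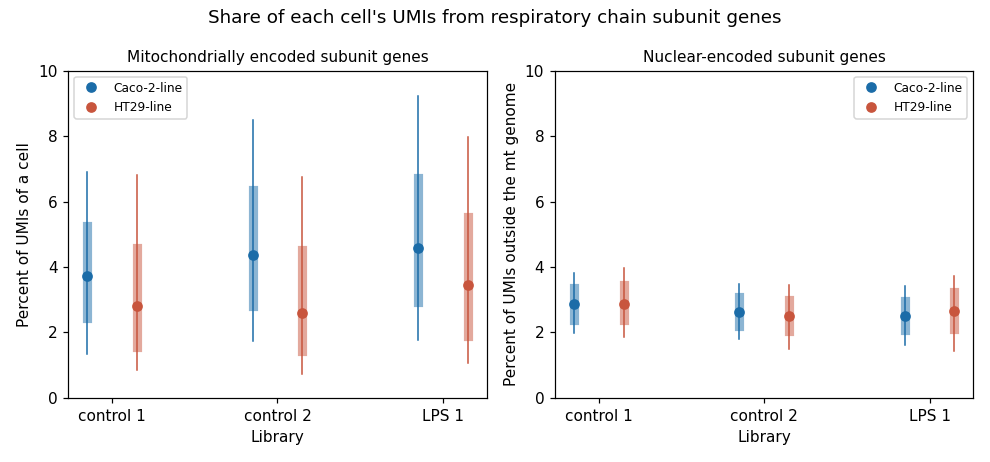
Share of a cell's UMIs from the 13 mitochondrially encoded genes (left, percent of all UMIs of a cell) and from the 83 nuclear-encoded subunit genes (right, percent of UMIs outside the mitochondrial genome) for Caco-2-line and HT29-line cells of each library. Points are medians over cells, thick bars the 25th to 75th percentiles and thin bars the 10th to 90th. The medians of HT29-line cells lie below those of Caco-2-line cells on the left in all 3 libraries, and the lines overlap on the right.

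Per cell, the median mitochondrial share was 2.82%, 2.6% and 3.45% in HT29-line and 3.74%, 4.38% and 4.6% in Caco-2-line cells of control 1, control 2 and the LPS library. The median nuclear share of UMIs outside the mitochondrial genome was 2.88%, 2.51% and 2.64% and 2.86%, 2.63% and 2.51%. Single cells spread widely in the first measure and narrowly in the second: the 90th percentile was 4.92 to 9.07 times the 10th for the mitochondrial share and 1.92 to 2.58 times for the nuclear share. The difference between the lines in the median is thus small beside the spread between cells of 1 line.

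Tested gene by gene on the summed counts, with the library as a block (edgeR quasi-likelihood test, adjusted p under 0.05), 72.8% of all 14452 genes differed between the lines, 34.3% higher and 38.5% lower in HT29-line cells. Among the 98 respiratory chain genes tested the share was 76.5%, close to that of all genes, with 24 higher and 51 lower. Of the 13 mitochondrial genes, 9 were lower, 2 higher and 2 not called, with a median log2 fold change of -0.53, against -0.19 for the nuclear subunits and -0.08 for all genes. HT29-line cells also had fewer cycling transcripts, 428 to 479 CPM against 1754 to 2056 CPM in sum. Of the 75 called members, 73 had the direction of the fit in all 3 libraries on the CPM scale.

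The complex I genes of the mitochondrial genome gave the 2 largest falls of that group. MT-ND1, a core membrane subunit, stood at 1304, 1455 and 1619 CPM in HT29-line cells of control 1, control 2 and the LPS library and at 2189.5, 2928 and 2962 CPM in Caco-2-line cells. The 2 lines did not overlap, and the log2 fold change was -0.96 ± 0.06 (SE, adjusted p = 2.8e-13). MT-ND3, another core subunit, stood at 2112, 2313 and 3429 CPM against 3599.6, 4913 and 5343 CPM, a log2 fold change of -0.92 ± 0.06 (adjusted p = 3.1e-12). Its ranges did not overlap either. MT-ND2, MT-ND4 and MT-ND4L fell by less, with log2 fold changes of -0.70 ± 0.06, -0.55 ± 0.05 and -0.52 ± 0.06.

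MT-ND5 went the other way. It is the large antiporter-like subunit at the tip of the membrane arm, and it stood at 1236, 1219 and 1421 CPM in HT29-line and 706, 777 and 914 CPM in Caco-2-line cells, a log2 fold change of 0.61 ± 0.06 (adjusted p = 4.5e-09). Every HT29-line value lies above every Caco-2-line value. MT-CYB, the cytochrome b of complex III and the next forward-strand gene, had 1361, 1505 and 1581 CPM against 1071, 1346 and 1315 CPM and a log2 fold change of 0.17 ± 0.06 (adjusted p = 0.013). It was higher in HT29-line cells without overlap, but the log2 fold change was -0.011 among cells with the fewest cycling transcripts. These lay at or below the lower tertile bound of their line and library. With ties they were 314, 563 and 449 of the 619, 929 and 774 HT29-line cells in control 1, control 2 and the LPS library. The HT29-line group thus exceeds a tertile, beside 1313, 1308 and 1317 Caco-2-line cells. MT-ND6, encoded on the other strand, had 337, 568 and 650.0 CPM against 333, 547 and 647 CPM, with a log2 fold change of -0.06 ± 0.07 that did not pass the test (adjusted p = 0.46) and was 0.02 with total UMIs as the scale.

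The catalytic core of complex IV was unequal as well. MT-CO3 stood at 3227, 3025 and 4101 CPM in HT29-line and 4888, 5674 and 6382 CPM in Caco-2-line cells (log2 fold change -0.80 ± 0.06), with no overlap. MT-CO1, which holds the oxygen-reducing centre, was at 6864, 7140.3 and 8114 CPM against 9178, 10063 and 10935 CPM (log2 fold change -0.53 ± 0.05). MT-CO2, which receives electrons from cytochrome c, was at 8483, 7019.7 and 8971 CPM against 7555, 7921 and 8449 CPM. Its log2 fold change of -0.06 ± 0.05 did not pass the test (adjusted p = 0.34) and is 0.03 when total UMIs set the scale. In complex V, MT-ATP6, part of the proton channel, had a log2 fold change of -0.40 ± 0.06 and MT-ATP8, which shares bases with it, one of -0.60 ± 0.08. Both were lower in HT29-line cells within each library, with ranges that overlap between libraries.

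The make-up of the mitochondrial transcripts differed as well. MT-ND5 was 3.65%, 3.61% and 3.47% of the mitochondrial UMIs in HT29-line cells of the 3 libraries and 1.73%, 1.6% and 1.76% in Caco-2-line cells. MT-CO2 was 25.1%, 20.8% and 21.9% against 18.5%, 16.3% and 16.2%, and MT-ND1 3.85%, 4.3% and 3.95% against 5.36%, 6.04% and 5.69%. In all 3 genes the ranges of the lines do not overlap. These ratios are taken within the mitochondrial transcripts, so they show unequal change and not which gene stayed the same.

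**Figure D2:**
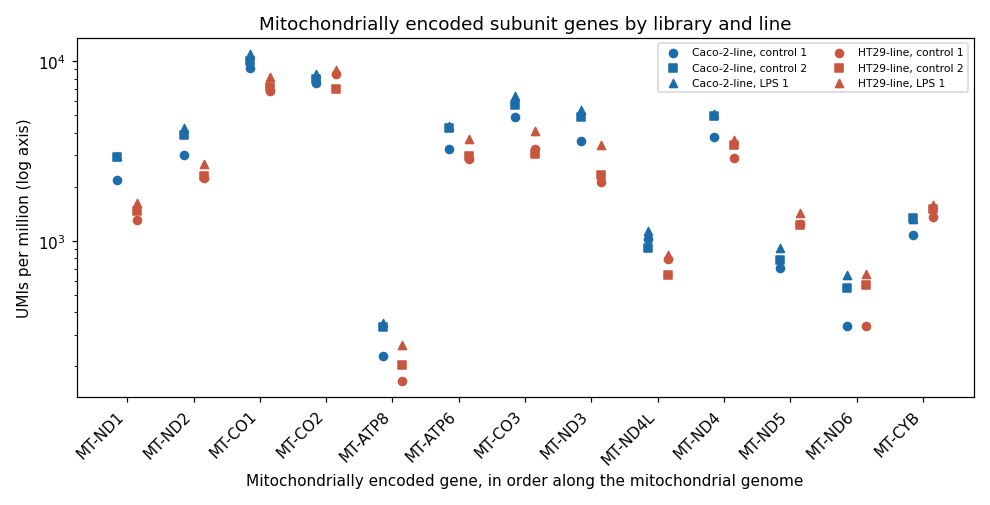
CPM (log axis) of the 13 mitochondrially encoded genes, in their order along the mitochondrial genome, with 1 symbol per library and colour for the line. Within each library HT29-line values are higher for MT-ND5 and MT-CYB, overlap with Caco-2-line values for MT-CO2 and MT-ND6, and are lower for the other 9 genes.

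Nuclear subunits moved in both directions within the same complex. In complex I, 10 rose, 21 fell and 6 did not pass the test of the 37 tested, with a median of -0.30, while the ratio of their summed share was above 1. NDUFB9, an accessory subunit of the membrane arm, stood at 1079, 871 and 1068 CPM in HT29-line cells of control 1, control 2 and the LPS library and at 279, 253 and 262 CPM in Caco-2-line cells. The lines are far apart, and the log2 fold change was 1.84 ± 0.07 (adjusted p = 2.4e-17). NDUFB2, a small neighbour in the membrane arm, rose from 184, 166 and 147 CPM to 425, 315 and 352 CPM (log2 fold change 1.05 ± 0.08), and an antisense transcript overlaps it. NDUFB4 rose too, from 291, 263 and 237 CPM to 494, 452 and 433 CPM (log2 fold change 0.72 ± 0.07).

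The largest falls also belonged to complex I. NDUFV3, a small subunit of the arm that binds NADH, stood at 43.9, 50.7 and 47.5 CPM in HT29-line and 126, 119.6 and 121 CPM in Caco-2-line cells, a log2 fold change of -1.45 ± 0.10 (adjusted p = 1.7e-12). NDUFC2, a membrane arm subunit, stood at 280.5, 214 and 211 CPM against 624, 543 and 487 CPM (log2 fold change -1.32 ± 0.08, adjusted p = 4.9e-14). Neither gene overlapped between the lines, but the level of NDUFC2 is uncertain because the annotated readthrough NDUFC2-KCTD14 covers its locus and was itself counted at 0. NDUFA8 and NDUFB7, both accessory subunits, fell by 0.92 and 0.88 on the log2 scale.

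In complex II the subunits parted. SDHA rose from 49.5, 46 and 45.1 CPM in Caco-2-line to 88.7, 103 and 103 CPM in HT29-line cells (log2 fold change 0.98 ± 0.10, adjusted p = 2.2e-09). SDHD fell from 80.6, 83.3 and 74.8 CPM to 43.7, 41.5 and 47.8 CPM (log2 fold change -0.93 ± 0.10, adjusted p = 1.4e-08). Both differences exceed the spread between libraries. The other subunits, SDHB and SDHC, did not pass the test, with log2 fold changes of 0.07 ± 0.10 and -0.19 ± 0.10.

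In complex III, 2 rose, 5 fell and 1 did not pass the test of 8. UQCRQ, a small subunit near cytochrome b, stood at 625, 579 and 566 CPM in HT29-line and 315, 265 and 256 CPM in Caco-2-line cells (log2 fold change 1.00 ± 0.07, adjusted p = 6.6e-12). Its ranges do not touch. With total UMIs as the scale 2 rose and 2 fell. UQCRH had a log2 fold change of -0.22 with TMM and -0.14 on total UMIs.

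Complex IV was the nuclear group with a positive median, 0.08, and 5 rose, 4 fell and 3 did not pass the test. COX4I1, the regulatory subunit that binds ATP, was lower in HT29-line cells, with 661, 565 and 572 CPM against 1019, 912 and 869 CPM (log2 fold change -0.72 ± 0.07). NDUFA4, once counted with complex I, was also lower at 377, 330.2 and 354 CPM against 628, 636 and 578 CPM (log2 fold change -0.88 ± 0.07). COX6B1 and COX6A1, subunits found in most tissues, were higher by 0.33 and 0.28. COX6B2, the testis isoform, had the largest fitted rise of all members, 2.12 ± 0.40 (adjusted p = 5.1e-05), but this rests on 77 UMIs in all and on 2.37, 3.61 and 3.55 CPM against 0.392, 1.01 and 0.661 CPM.

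In complex V, 3 rose, 10 fell and 4 did not pass the test of 17, with a median of -0.44. ATP5F1C, the gamma subunit that forms the rotating shaft, fell from 439, 413 and 343 CPM in Caco-2-line to 256, 214 and 205 CPM in HT29-line cells (log2 fold change -0.91 ± 0.08, adjusted p = 1.4e-10). ATP5PO, which joins the head to its stalk, and ATP5MPL, a small membrane subunit, both had a log2 fold change of -0.96, with SEs of 0.08 and 0.08. ATP5PB, the b subunit of the stalk, rose from 52.5, 60.4 and 58.1 CPM to 83.9, 92.2 and 93.4 CPM (log2 fold change 0.57 ± 0.09). ATP5IF1, which blocks ATP hydrolysis by the enzyme when the proton gradient is lost, was higher in HT29-line cells, with 537, 509 and 548 CPM against 279, 279 and 263 CPM (log2 fold change 0.87 ± 0.07, adjusted p = 1.1e-10). ATP5F1C and NDUFB4, whose promoters both hold the printed palindrome, thus moved in opposite directions. NDUFA8 and SDHD, the other genes with the exact palindrome, were lower in HT29-line cells, as ATP5F1C was. The promoters of ATP5F1C and NDUFB4 are not alike otherwise, since that of NDUFB4 also holds matches to the looser form. A part of the motif in these differences was not tested.

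**Figure D3:**
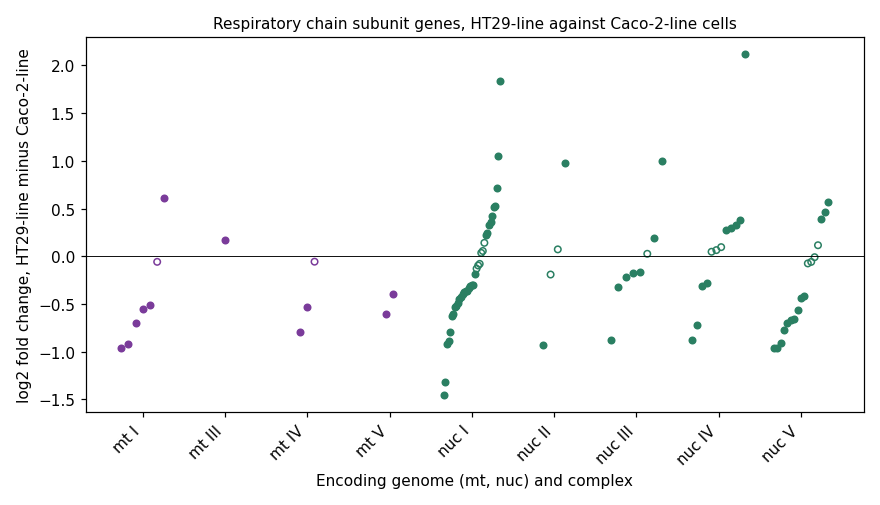
Log2 fold change of each subunit gene, HT29-line minus Caco-2-line cells (edgeR, TMM scaling), grouped by encoding genome and complex. Filled points passed the test at an adjusted p under 0.05 and open points did not. Each nuclear group spans both sides of 0, from -1.45 for NDUFV3 to 2.12 for COX6B2, while 9 of the 13 mitochondrial genes are called below 0.

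Lists of related genes were counted beside the members, with 72.8% of all genes called as the background. Of 24 genes for copying, transcription and RNA handling, 13 fell and 2 rose (62.5% called), with a median of -0.65. TFAM, which packages and transcribes mitochondrial DNA, had a log2 fold change of -2.01 ± 0.10, LRPPRC, which stabilises mitochondrial messengers, -1.54 ± 0.09, and MTPAP, their poly(A) polymerase, -1.53 ± 0.17. Of 14 glycolytic genes 12 rose and 1 fell, with a median of 1.18 and HK1, PGK1 and PKM at 2.28 ± 0.15, 2.15 ± 0.07 and 1.89 ± 0.07.

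Carriers and electron shuttles fell in 8 of 12 and rose in 1, among them the adenine nucleotide carrier SLC25A6 at -1.83 ± 0.08 and the phosphate carrier SLC25A3 at -1.66 ± 0.08. The shares called were 70.6% for the citric acid cycle, 63.4% for assembly factors and 71.2% for the mitochondrial ribosome, all below the background. Of 17 citric acid cycle genes 9 fell and 3 rose (median -0.41), of 41 assembly factors 21 and 5 (median -0.24), and of 8 regulators of mitochondrial biogenesis 3 and 1. Mitochondrial ribosome symbols fell in 40 and rose in 17 of 80 (median -0.35). Cytosolic ribosomal protein genes fell in 77 of 82 (median -0.79), and the share of the nuclear-retained RNAs was 2.60 ± 0.17 times that of Caco-2-line cells (n = 3). The part of these RNA classes in the respiratory chain values was not tested.

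Caco-2-line cells were next compared by state, between the tertiles of each library with the highest and lowest share of 16 enterocyte marker genes. These groups of 1308 to 1317 cells also differed in cycling markers, 897 to 1119 CPM in the high and 2326 to 2637 CPM in the low tertile. As shares, respiratory chain transcripts hardly moved. The nuclear share of UMIs outside the mitochondrial genome was 3.0%, 2.77% and 2.62% in the high tertile of control 1, control 2 and the LPS library. In the low tertile this nuclear share was 2.9%, 2.66% and 2.56%. It was higher in the high tertile within every library, with a ratio of 1.03 ± 0.01 (mean ± SD, n = 3). The mitochondrial share was 4.11%, 4.44% and 5.0% against 3.99%, 5.02% and 5.31%, higher in control 1 and lower in the others.

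The direction of the gene-wise test depends here on the scale. With TMM scaling the median of all genes was -0.01, and with total UMIs as library size it was -0.30. Of all 13213 genes 62.7% were called with TMM, 31.8% higher and 30.9% lower, and of 96 respiratory chain genes 57 were higher and 6 lower. With total UMIs 26 were higher and 37 lower. Relative to the median gene, the nuclear subunits lay 0.28 higher on the first scale and 0.28 higher on the second. The mitochondrial genes lay 0.16 and 0.17 higher. A change of scale shifts all genes nearly alike, so these distances could hardly differ between the scales. Without control 1 the mitochondrial median was 0.059, against 0.15 with all libraries. Of the 63 members called with TMM, 39 had the direction of the fit in all 3 libraries on the CPM scale and 49 had it on total UMIs. Members whose direction held on both scales are therefore described first.

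ATP5ME had the largest rise. It is a membrane subunit of ATP synthase that helps form dimers, and it stood at 1009, 847 and 948 CPM in the high and 706, 539 and 645 CPM in the low tertile. The tertiles did not overlap, and the log2 fold change was 0.87 ± 0.05 (adjusted p = 2.5e-12), or 0.57 on total UMIs. ATP5MC2, a c ring gene, stood at 670.0, 713 and 649 CPM against 499, 493 and 465 CPM (log2 fold change 0.77 ± 0.05, 0.48 on total UMIs). COX7A2, the complex IV isoform found in most tissues, stood at 785, 718 and 646 CPM against 582, 524 and 475 CPM (log2 fold change 0.74 ± 0.05, 0.44 on total UMIs). In all 3 genes each high tertile exceeds each low tertile.

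SDHB, the iron-sulfur subunit of complex II, ATP5PF, of the stalk of ATP synthase, UQCRQ and NDUFA3 rose by 0.76, 0.73, 0.70 and 0.66 with TMM and by 0.46, 0.44, 0.41 and 0.37 on total UMIs. The antisense transcript NDUFV2-AS1 had a fitted rise of 0.85 ± 0.28, from at most 3.14 CPM, and did not pass the edgeR test on total UMIs (adjusted p = 0.093). Among the mitochondrial genes MT-CO1 rose from 8226, 9240.0 and 10083 CPM to 10137, 10455 and 11575 CPM (log2 fold change 0.52 ± 0.07, adjusted p = 3.2e-07, 0.23 on total UMIs). The tertiles did not overlap. MT-ND5 had a log2 fold change of 0.40 ± 0.07, and 0.11 on total UMIs, where it did not pass the edgeR test (adjusted p = 0.17), and its CPM was lower in the high tertile of control 2.

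Lower on both scales were NDUFB9, MT-ATP8 and several others. NDUFB9 stood at 215, 189 and 194 CPM in the high and 346, 314 and 332 CPM in the low tertile (log2 fold change -0.44 ± 0.06, adjusted p = 5.4e-07, -0.73 on total UMIs). MT-ATP8 stood at 189, 231 and 270.1 CPM against 266, 399 and 422 CPM (log2 fold change -0.35 ± 0.06, adjusted p = 4.6e-05). Both were lower within every library, and only the ranges of MT-ATP8 overlap. The value of MT-ATP8 is uncertain because its split from MT-ATP6 is, and the sign of MT-ATP6 turned with the scale. ATP5S, NDUFA6, ATP5F1A, the alpha subunit of the catalytic head, and NDUFS5 fell by 0.25, 0.20, 0.19 and 0.16 on the log2 scale. In the tertile with the fewest cycling transcripts NDUFA6 had a log2 fold change of 0.025 instead.

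For the other mitochondrial genes the sign turned with the scale, except in MT-ND4L, -0.09 with TMM and -0.39 on total UMIs, and MT-CYB, 0.30 and 0.01. MT-ND1 was 0.25 with TMM and -0.04 on total UMIs, MT-CO2 0.23 and -0.06, MT-ND6 0.20 and -0.09, and MT-CO3 0.15 and -0.14. No direction is given for these genes. By complex, the nuclear medians with TMM were 0.09 for complex I, 0.33 for II, 0.42 for III, 0.41 for IV and 0.37 for V. Complex I kept the lowest summed ratio as well, 0.89 ± 0.01 against 1.09 ± 0.02 for complex IV and 1.10 ± 0.01 for complex V, an order that does not depend on the scale.

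Beside these, glycolytic genes rose in 12 of 14 on either scale, with medians of 1.02 with TMM and 0.73 on total UMIs. The counts of the other lists moved with the scale, as did those of all genes, of which 4203 rose and 4088 fell with TMM and 2460 and 6382 on total UMIs. Cytosolic ribosomal protein genes rose in 63 and fell in 3 of 82 with TMM (80.5% called), or 25 and 26 on total UMIs. Their median with TMM lay 0.29 above that of all genes, beside 0.28 for the nuclear respiratory chain subunits. Genes serving the mitochondrial genome fell in 14 and rose in 2 of 24 with TMM, and 20 fell on total UMIs. Mitochondrial ribosome symbols fell in 34 and rose in 14 of 80, or 59 and 5 on total UMIs. Of 8 regulators of mitochondrial biogenesis, 4 rose and 1 fell with TMM (62.5% called), while 3 rose and 3 fell on total UMIs. Among them PPARA and HNF4A, the second a driver of enterocyte differentiation, had log2 fold changes of 1.54 ± 0.10 and 1.45 ± 0.06. PPRC1 went the other way, with -0.92 ± 0.12. Assembly factors fell in 16 and rose in 7 of 41 with TMM, or 28 and 2 on total UMIs. The shares called with TMM were 66.7% for the genes serving the mitochondrial genome, 60% for the ribosome and 56.1% for assembly factors, beside 62.7% of all genes.

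The tertiles of Caco-2-line cells with the highest and lowest share of 20 cycling marker genes gave a different order of complexes. The cycling-high cells were deeper, with median UMIs of 7391, 5636 and 4586 against 4393, 3467 and 2952 in control 1, control 2 and the LPS library, and had fewer enterocyte transcripts, 2504 to 3694 CPM against 9462 to 11277 CPM. The nuclear share was 3.14%, 2.79% and 2.69% in the high and 2.79%, 2.57% and 2.43% in the low tertile, a ratio of 1.11 ± 0.02, and the mitochondrial share 4.14%, 4.95% and 5.32% and 3.88%, 4.53% and 4.88%, a ratio of 1.08 ± 0.01 (mean ± SD, n = 3). Both shares were higher in the cycling-high tertile within every library. The nuclear ratio was 1.26 ± 0.04 for complex I and 1.03 ± 0.02 for complex V.

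In the gene-wise test 54.1% of 13179 genes were called, 27.1% higher and 27.0% lower, and of 96 respiratory chain genes 47 were higher and 19 lower. With total UMIs, which shift the median of all genes from 0.00 to 0.12, the counts were 66 and 8. On that scale the calls of all genes were uneven too, with 4624 higher and 2559 lower. Without the library as a block, 18 respiratory chain genes were higher and 3 lower. The nuclear median was 0.12 and the mitochondrial one 0.04, which was 0.096 without control 1 and 0.0087 without control 2. Of the 37 nuclear complex I genes, 24 rose, 6 fell and 7 did not pass the test, and the median was 0.26. On total UMIs 30 of them rose and the 6 falls were no longer called. Of the 66 members called with TMM, 61 had the direction of the fit in all 3 libraries on the CPM scale. When every cell was thinned to 1500 UMIs, 32 members were higher and 16 lower, and the nuclear median was 0.073. The share of nuclear-retained RNAs was 0.65 ± 0.03 times that of cycling-low cells, and its part was not tested.

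Complex I accessory subunits made up most of the named rises. NDUFA6 stood at 170.0, 147 and 141 CPM in the high and 96.7, 95.9 and 87.8 CPM in the low tertile (log2 fold change 0.58 ± 0.05, adjusted p = 1.5e-09). NDUFS6, which is needed for the arm that takes up NADH, stood at 356, 282 and 271 CPM against 216, 190.0 and 165 CPM (log2 fold change 0.54 ± 0.05, adjusted p = 3.8e-10). Neither gene overlapped between the tertiles. NDUFA9, NDUFA12, NDUFB9 and NDUFA11 rose by 0.42, 0.41, 0.41 and 0.40, and ATP5S by 0.44.

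The genes of the c ring of ATP synthase parted, although they encode 1 mature protein. ATP5MC1 stood at 219, 206 and 181 CPM in the cycling-high and 101, 126 and 107 CPM in the cycling-low tertile (log2 fold change 0.74 ± 0.06, adjusted p = 8.1e-11). ATP5MC2 stood at 546, 519 and 494 CPM against 676, 680.1 and 631 CPM (log2 fold change -0.48 ± 0.04, adjusted p = 1.9e-10). ATP5MC1 was thus higher and ATP5MC2 lower in cycling-high cells in all 3 libraries and on both scales, while ATP5MC3 had 0.18 ± 0.04 with TMM and 0.30 on total UMIs. In the enterocyte tertiles ATP5MC1 had -0.05 ± 0.06 with TMM and -0.35 on total UMIs, beside the rise of ATP5MC2 given above.

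Lower in cycling-high cells were COX7A2L, which joins complexes III and IV into supercomplexes, and COX7C. COX7A2L stood at 248, 246 and 218 CPM against 321, 306 and 281 CPM (log2 fold change -0.48 ± 0.05, adjusted p = 2.1e-09), and COX7C at 1102, 1078 and 1011 CPM against 1328, 1385 and 1249.8 CPM (log2 fold change -0.44 ± 0.04, adjusted p = 3.2e-10). Both were lower in every library without overlap. NDUFS4, ATP5F1E, NDUFB5 and UQCRB fell by 0.27, 0.26, 0.24 and 0.23 on the log2 scale, and the scarce antisense NDUFV2-AS1 by 0.76. On total UMIs NDUFS4 and NDUFB5 did not pass the edgeR test (adjusted p = 0.056 and 0.11), and NDUFB5 had a higher CPM in the cycling-high tertile of control 1.

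For the mitochondrial genes the calls with cycling depended on the scale, with 4 higher and 3 lower with TMM and 9 and 2 on total UMIs. With TMM, MT-CO1, MT-ND5 and MT-CYB fell by 0.19, 0.22 and 0.18 on the log2 scale, MT-ND5 being at 0.013 in the tertile with the fewest enterocyte transcripts, and MT-CO2, MT-ATP6, MT-ND4 and MT-ND6 rose by 0.10, 0.10, 0.12 and 0.12. The other 6, MT-ND1, MT-ND2, MT-CO3, MT-ATP8, MT-ND3 and MT-ND4L, lay between -0.08 and 0.09 and did not pass the test. On total UMIs 5 of these 6 were called higher, from 0.11 for MT-ND3 to 0.21 for MT-ATP8, and MT-ND2 (0.04) was not, while MT-CYB, at -0.06, lost its call. MT-ND2 and MT-ND3 were thus negative with TMM and positive on total UMIs. MT-CO1, MT-ND5 and MT-CYB are the mitochondrial genes with the lowest values in cycling-high and the highest in enterocyte-high cells, but the tertiles of both markers are cut from the same cells and are not independent.

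Around them, with 54.1% of all genes called, mitochondrial ribosome symbols rose in 55 and fell in 3 of 80 (median 0.38). Genes serving the mitochondrial genome rose in 11 of 24 and the other 13 did not pass the test, with TFAM at 0.98 ± 0.05. Assembly factors rose in 21 and fell in 2 of 41, led by UQCC2 at 1.22 ± 0.06, and citric acid cycle genes in 9 and 2 of 17. On total UMIs the rises and falls were 67 and 2 for the ribosome, 25 and 1 for assembly factors and 10 and 1 for the citric acid cycle, and 14 genes serving the mitochondrial genome rose. All genes tested gave 4624 rises and 2559 falls on that scale. Glycolytic genes fell in 8 of 14 by the edgeR test, and with total UMIs 4 rose and 6 fell. Not all lists rose. Regulators of mitochondrial biogenesis rose in 1 and fell in 4 of 8 with TMM (median -0.27), or 2 and 4 on total UMIs. Carriers and electron shuttles rose in 5 and fell in 4 of 12, or 6 and 3 on total UMIs. Cytosolic ribosomal protein genes rose in 4 and fell in 73 of 82 (median -0.24), or 8 and 55 on total UMIs.

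**Figure D4:**
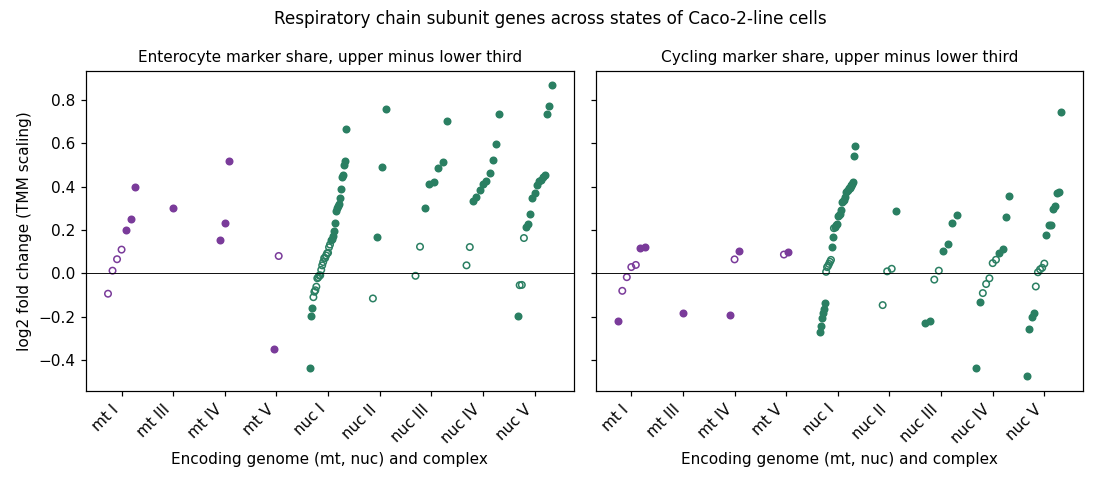
Log2 fold changes (edgeR, TMM scaling) of subunit genes between the highest and lowest tertile of Caco-2-line cells by enterocyte marker share (left) and cycling marker share (right), grouped by encoding genome and complex. Filled points passed the test. On the left the nuclear genes of complexes III to V lie mostly above 0, where the median of all genes is -0.01 with this scaling and -0.30 on total UMIs. On the right 24 of 37 nuclear complex I genes are called above 0, and 30 on total UMIs, where 4624 of all genes are called above 0 and 2559 below.

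LPS was compared with the 2 controls over all kept cells. In the LPS library the mitochondrial share was 1.26 times that of control 1 and 1.09 times that of control 2, and control 2 itself was 1.15 times control 1. The nuclear share was 0.88 and 0.97 times those of the controls, with 0.90 between the controls. The LPS library thus lies beyond control 2 in the direction in which control 2 differs from control 1, by less than the controls differ from each other. Depth per cell falls in the same order, from 5454 to 4105 to 3575 UMIs, and with every cell thinned to 1500 UMIs the medians over genes, given next for full depth, were 0.15 for the mitochondrial and -0.22 for the nuclear group. Nuclear-retained RNAs rose in that order too, from 3.29% to 3.65% to 3.83% of UMIs outside the mitochondrial genome. So did the share of cells over the limit of 20% mitochondrial UMIs, from 0.36% to 1.01% to 1.64%. Thinning keeps the expected share of each gene within a cell, so the thinned medians could hardly differ and cannot show the part of depth. The part of depth, of nuclear-retained RNAs and of cells with a high mitochondrial share was not tested.

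By the edgeR test 0 of 98 respiratory chain genes were called, 12 had an unadjusted p under 0.05, and DESeq2 called 0 as well. Over all genes 15 of 16140 were called, or 0.0929% (0.062% higher and 0.031% lower), and 776 had an unadjusted p under 0.05. All 13 mitochondrial genes had a positive log2 fold change (median 0.15) and 5 of 78 nuclear subunits did (median -0.22), against a median of 0.01 for all genes. Without control 1 these medians were 0.08 and -0.13, and without control 2 they were 0.27 and -0.31. Other lists were also mostly negative: 3 of 80 mitochondrial ribosome symbols were positive (median -0.23), 0 of 12 carriers (median -0.21) and 15 of 41 assembly factors (median -0.13). Glycolytic genes had 6 of 14 positive (median -0.02) and regulators of mitochondrial biogenesis 6 of 8 (median 0.08). The test assumes that the LPS library varies as the controls do, with 1 residual degree of freedom. MT-ND6, with 331, 546 and 642 CPM in control 1, control 2 and the LPS library, had the largest value of the mitochondrial genes, 0.48 ± 0.21 (adjusted p = 0.93). The step between its controls is larger than that from control 2 to LPS. MT-ND3 stood at 3386, 4435 and 4984 CPM (0.27 ± 0.20) and MT-CO1 at 8841, 9534 and 10429.7 CPM (0.10 ± 0.21). The others lay between 0.05 for MT-CYB and 0.26 for MT-ATP8.

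Among nuclear genes NDUFAB1, the mitochondrial acyl carrier protein, had the lowest unadjusted p, with 247, 212 and 179.5 CPM and a log2 fold change of -0.44 ± 0.16 (adjusted p = 0.93). COX5A stood at 383, 363 and 295 CPM (-0.42 ± 0.16). In both genes the LPS value is the lowest of the 3, and control 2 lies between. In HT29-line cells alone the mitochondrial share of the LPS library was 1.21 times that of control 1 and 1.21 times that of control 2, with 1.00 between the controls, and the median log2 fold change of the mitochondrial genes there was 0.18. The nuclear share of the LPS library was 0.91 times that of control 1 but 1.06 times that of control 2, inside the range of the controls. The difference between the lines was also compared between the LPS library and the controls. 0 of 98 members were called by edgeR (3 at an unadjusted p under 0.05, 0 by DESeq2), with 13 of 15047 genes called in all, or 0.0864% (0.0598% higher and 0.0266% lower).

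The last question was how the 2 genomes' parts go together in single cells. Spearman's rho between the mitochondrial share and the nuclear share outside the mitochondrial genome was 0.09 to 0.26 over the 6 combinations of library and line (619 to 3951 cells each). It is weak, and all cells of a library share its depth and free RNA. Divided into quintiles by mitochondrial share, Caco-2-line cells in the lowest quintile (medians 1.34%, 1.73% and 1.78%) had a nuclear share of 2.57%, 2.5% and 2.31% in control 1, control 2 and the LPS library. In the middle quintile it was 3.02%, 2.77% and 2.65%, and in the highest quintile (medians 6.91%, 8.51% and 9.23%) 3.15%, 2.82% and 2.69%. The step from the lowest to the middle quintile is present in every library and larger than the step from the middle to the highest. Depth and nuclear-retained RNAs moved with it: cells of the lowest quintile had medians of 4700.5, 3853 and 3218 UMIs against 5787, 4495 and 3776 in the middle one, and nuclear-retained RNAs at 3.44%, 2.99% and 3.9% against 2.56%, 2.57% and 2.74%, and their part was not tested. In HT29-line cells the nuclear share was 2.62%, 2.42% and 2.44% in the lowest, 3.27%, 2.6% and 2.8% in the middle and 3.16%, 2.62% and 2.87% in the highest quintile. It was highest in the middle quintile in control 1, in the fourth in control 2 and in the last in the LPS library.

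Barcodes beyond the limit behaved differently. Over all barcodes of the tables, the nuclear share was 3.12%, 2.8% and 2.7% at 6% to 10% mitochondrial UMIs, 2.43%, 2.3% and 2.34% at 10% to 20% and 1.17%, 1.19% and 1.25% at 20% to 40%. The last are 133, 255 and 377 barcodes with medians of 954, 866 and 866 UMIs. Cytosolic ribosomal protein genes fell along with it, from 30.1%, 31.1% and 30.9% at 6% to 10% to 15.4%, 12.7% and 13.8% at 20% to 40%, and the nuclear-retained RNAs rose from 3.3%, 3.48% and 3.69% to 10.1%, 12% and 10.1%. The part of depth and of these RNA classes in the respiratory chain values was not tested.

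**Figure D5:**
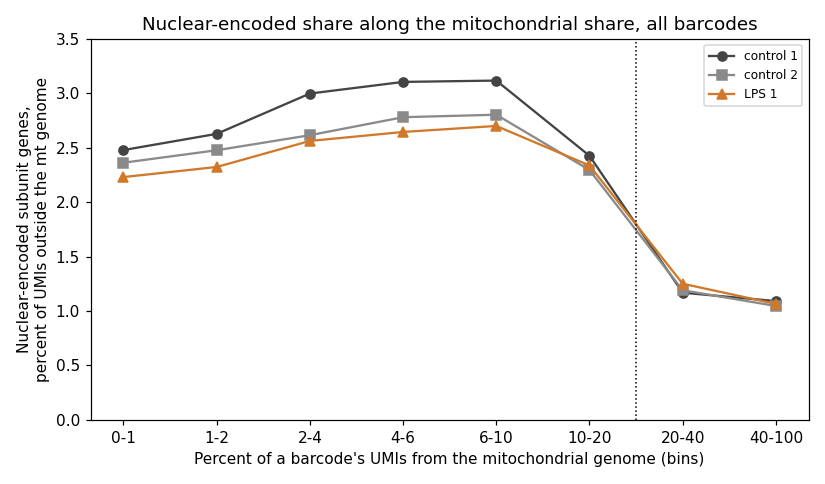
Nuclear-encoded subunit genes as a percent of UMIs outside the mitochondrial genome (vertical axis, from 0) for all barcodes binned by the percent of UMIs from the mitochondrial genome, 1 line per library. The dotted line marks the limit of 20%. In each library the share peaks at 6% to 10% and lies between 1.05% and 1.25% beyond the limit.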

How the data were processed

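Per the file headers, the authors made the deposited counts with Cell Ranger 3.1.0 on GRCh38, as UMIs per gene and barcode with no normalization. Barcodes were kept at 2250 UMIs and 770 genes or more in control 1 and at 1500 and 700 in the others, and dropped above 20% mitochondrial UMIs. Scrublet (scanpy 1.11.5) called 0 doublets by its own cut, so in each library the 6% of cells scoring highest were taken out. A log2 ratio of HT29 to Caco-2 marker UMIs was divided by Otsu's method, and cells within 1 log2 unit were left out.

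Counts were summed per library and cell group and tested with edgeR 4.0.16 in R 4.3.3 (quasi-likelihood, TMM, filterByExpr, Benjamini-Hochberg over all genes). The library was a block for comparisons within libraries, since both groups were cells of the same library. The SE of a log2 fold change was taken as its absolute value over the square root of the F statistic of the test. Deviations of paired groups correlated at 0.092 to 0.65 for the lines and 0.46 to 0.83 for the tertiles. DESeq2 1.42.0, other scalings, filters and thinning were alternatives. The tests were also run on simulated counts drawn from a pooled profile without library effects, which cannot check the use of the block. Zero limits cover counting error only. Members and lists were chosen with earlier results of these data known. Named were the 13 mitochondrial genes, up to 8 other members with the largest rise and 8 with the largest fall per comparison, the 5 with most UMIs per complex, isoforms, members without UMIs, and genes among the 3 largest changes of each other list. NDUFAB1, COX5A and COX6A1 were picked after their values were seen.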

Additional observations from a re-analysis of the deposited data

How the results depend on the processing

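No paired analysis was possible because the LPS library is the only 1 of its group. For the other comparisons, leaving out the replicate block gave 63 respiratory chain genes called between the lines, 40 between the enterocyte tertiles and 21 between the cycling tertiles, against 75, 63 and 66 with it.

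The medians of the mitochondrial and nuclear genes moved with scaling: with total UMIs they were -0.45 and -0.11 between the lines, -0.14 and -0.023 between the enterocyte tertiles and 0.16 and 0.25 between the cycling tertiles, and with UMIs outside the mitochondrial genome as library size -0.46 and -0.12, -0.14 and -0.027, and 0.17 and 0.25. Without a filter on low counts they were -0.59 and -0.27 between the lines, the nuclear enterocyte median was 0.22 and the mitochondrial cycling median 0.084. The nuclear enterocyte median was also 0.24 with no doublets removed and 0.20 for Caco-2-line cells divided at the median share. The nuclear cycling median was 0.073 after thinning and 0.20 within the lower tertile of enterocyte share. Leaving out 1 library gave 67 to 71, 57 to 57 and 54 to 67 calls for the lines, enterocyte and cycling tertiles, mitochondrial medians of -0.53 to -0.50, 0.059 to 0.17 and 0.0087 to 0.096, and nuclear medians of -0.21 to -0.15, 0.21 to 0.27 and 0.11 to 0.13. For LPS against control the medians were 0.078 to 0.27 and -0.31 to -0.13, and MT-ND1, MT-ND4 and MT-CYB had -0.022, -0.021 and -0.069 without control 1. Without control 1, between the enterocyte tertiles, MT-ATP6, MT-ND3 and MT-ND4 were negative, with ranges of -0.011 to 0.14, -0.061 to 0.17 and -0.078 to 0.084 over the libraries left out, and between the cycling tertiles MT-ND3 was positive (-0.061 to 0.041). Without control 2 MT-CO2 was positive between the lines (-0.11 to 0.047) and MT-ND1 negative between the cycling tertiles (-0.0016 to 0.055).

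Signs of single genes also turned. With total UMIs these were MT-CO2 0.027 and MT-ND6 0.025 between the lines, MT-ND1 -0.042, MT-ND2 -0.18, MT-CO2 -0.060, MT-ATP6 -0.21, MT-CO3 -0.14, MT-ND3 -0.23, MT-ND4 -0.28 and MT-ND6 -0.090 between the enterocyte tertiles and MT-ND2 0.044 and MT-ND3 0.11 between the cycling tertiles. With UMIs outside the mitochondrial genome they were MT-CO2 0.010 and MT-ND6 0.0083, then MT-ND1 -0.046, MT-ND2 -0.19, MT-CO2 -0.064, MT-ATP6 -0.22, MT-CO3 -0.14, MT-ND3 -0.23, MT-ND4 -0.28 and MT-ND6 -0.094, and MT-ND2 0.050 and MT-ND3 0.11. At most 10% mitochondrial UMIs gave MT-CO2 -0.0046 and MT-CYB -0.0063 for LPS, and an LPS mitochondrial share of 4.46%. MT-ND4 between the enterocyte tertiles was -0.023 with no limit on the mitochondrial share, -0.0035 with no doublets removed and -0.0042 with no replicate block. Among cells with the lowest cycling share, more than a tertile of HT29-line cells because of ties, MT-CYB was -0.011 between the lines. In the lower tertile of cycling share of Caco-2-line cells NDUFA6 was 0.025 between the enterocyte tertiles. In the lower tertile of enterocyte share the cycling comparison gave MT-ND2 0.029, MT-ATP8 -0.066, MT-ND3 0.061, MT-ND4L -0.035 and MT-ND5 0.013. Between the cycling tertiles of all Caco-2-line cells MT-ND3 was 0.028 without a filter on low counts and 0.010 after thinning. The median per-cell rho was 0.060 with the nuclear share taken over all UMIs. The cause of these changes was not tested, except that the medians move with scaling by construction. Of the other values of named genes under an alternative, 1256 kept direction and side of the threshold, 102 lost the call and 27 gained it. With 3 libraries and 1 of them treated, the LPS comparison has the least power, and genes with few UMIs, such as COX6B2 and NDUFV2-AS1, are the least certain.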
